A study of Mus musculus with 7 samples.

Results

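The collagen genes are described here in mouse cells of neural crest origin, taken from small bowel or from fat under the skin and either sorted fresh or grown as neurospheres. They are the 44 genes, of 27179 listed, whose mouse symbol has the form of a collagen chain (Col, a type number, the letter a and a chain number). The 44 genes encode chains of 27 collagen types. The choice rests on the gene names and uses no measured value. RNA sequencing was done on 7 libraries, 1 for each group, from Wnt1-Cre;R26R-tdT (Wnt1-tdT) mice aged 1 month. Cre driven by the Wnt1 promoter turns on a red fluorescent reporter, tdTomato, in cells of the neural crest and in all that descend from them. All 7 groups carry both alleles. Each library was made from about 50000 cells pooled from 3 mice, 2 of them female and 1 male.

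2 groups came from posterior subcutaneous fat pads. Adipose primary cells were tdTomato-positive cells sorted straight after digestion. Adipose neurospheres were grown in 2 stages, 10 days as mixed spheroids and, after sorting for tdTomato, 10 more days. 5 groups came from the muscle and myenteric plexus layer of the small bowel. Bowel primary cells were tdTomato-positive cells sorted straight after digestion. M1 neurospheres were grown for 10 days from such sorted cells. Mixed bowel spheroids, called neurosphere-like bodies (NLB), were grown for 10 days without a first sort and then sorted into tdTomato-positive cells (positive spheroid cells below) and tdTomato-negative cells (negative spheroid cells). M2 neurospheres were grown for 10 more days from sorted positive cells. Cultures received basic fibroblast growth factor and epidermal growth factor at 20 ng/mL each, with heparin.

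Collagens are secreted or membrane-bound proteins whose chains wind into a triple helix. Fibrillar collagens build the cables of connective tissue, type IV collagen builds the sheet of basement membranes, and fibril-associated collagens with interrupted helices (FACIT) coat the fibrils. Fibroblasts are the main source of types I, III and VI in most tissues, while Schwann cells and other peripheral glia are known to lay down basement membrane with type IV. Chains are hydroxylated and folded in the endoplasmic reticulum, trimmed of their propeptides outside the cell, cross-linked by lysyl oxidases, and bound by integrins and discoidin domain receptors.

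Depth was similar across libraries, from 51885106 to 65301500 gene-assigned reads, and 12401 to 14690 genes reached 1 CPM. CPM gives the reads of a gene relative to all gene-assigned reads of its library and is the scale of the levels here unless stated per kb. With 1 library per group nothing here has a replicate check, no test was possible, and the intervals cover counting error only. The crest and glial markers Sox10, S100b, Erbb3, Foxd3 and Fabp7 summed to between 294 and 1937 CPM in the 6 tdTomato-positive groups and to 12.5 CPM in negative spheroid cells, so these markers followed the labels. Markers of other cells were present too. 9 fibroblast markers summed to 35791 CPM in negative spheroid cells and to between 181 and 4800 CPM elsewhere, and the fibroblast proteoglycan gene Dcn ran from 11.0 CPM in M2 neurospheres to 7124 CPM in negative spheroid cells. In bowel primary cells the 6 smooth muscle markers summed to 24364 CPM, against 20.9 to 302 CPM in the other libraries. The 6 pancreatic acinar markers summed to 39335 CPM there, against 1.96 to 3.95 CPM elsewhere, and the 5 mesothelial markers summed to 1280.5 CPM. The part of these cells in the collagen results was not tested. In bulk RNA, fewer cells of a type and less RNA per cell cannot be told apart.

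Collagen genes took the largest part of the library in negative spheroid cells, with 2.14% of reads (95% Clopper-Pearson interval 2.133% to 2.140%). Adipose primary cells followed with 1.53% (1.526% to 1.532%), then adipose neurospheres with 1.08% and positive spheroid cells with 1.04%. M1 neurospheres had 0.759%, M2 neurospheres 0.490% and bowel primary cells 0.456%. Each step in this order exceeded counting error. The order of the lowest pair is not stable, since TMM-scaled library sizes (a composition correction, trimmed mean of M values) put M2 neurospheres at 0.445% and bowel primary cells at 0.505%. In all 7 libraries between 27 and 35 of the 44 genes reached 1 CPM.

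**Figure D1:**
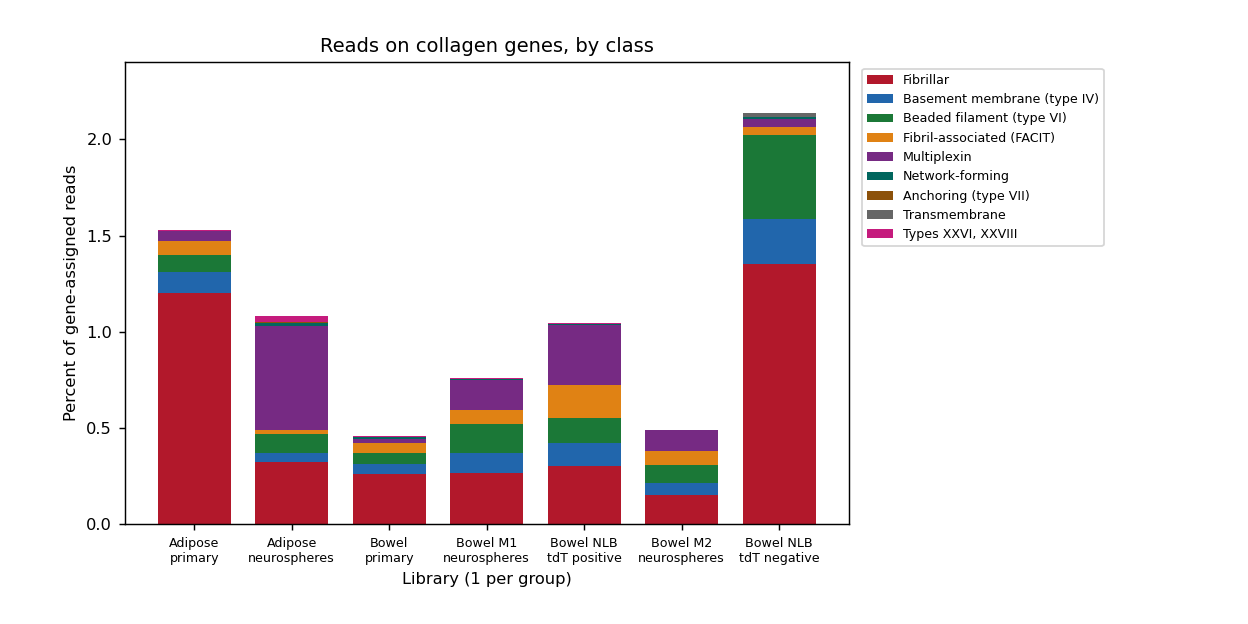
Percent of gene-assigned reads on collagen genes (vertical axis) in each of the 7 libraries (horizontal axis, 1 library per group), stacked by collagen class. Negative spheroid cells (2.14%) and adipose primary cells (1.53%) stand highest and are mostly fibrillar, while the multiplexin part is large in adipose neurospheres and positive spheroid cells.

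The makeup of the family differed between libraries. Fibrillar genes held 78.5% of collagen reads in adipose primary cells, 63.3% in negative spheroid cells and 57.0% in bowel primary cells. In the 4 cultured tdTomato-positive libraries that share lay between 29.1% and 34.9%. The multiplexins, the basement membrane collagens Col15a1 and Col18a1, showed the reverse, with 1.84% to 4.81% of collagen reads in the first 3 libraries. They held 49.8% in adipose neurospheres, 29.9% in positive spheroid cells, 22.3% in M2 neurospheres and 20.4% in M1 neurospheres. Nearly all of this was Col18a1, with 49.4%, 29.8%, 22.3% and 20.1% in the same order. Col15a1 did not share the pattern and was highest in negative spheroid cells (77.4 CPM). Per kilobase of exon, the scale on which genes are compared with each other here, Col3a1 was the most abundant collagen in adipose primary cells (1496 CPM per kb), negative spheroid cells (1258) and bowel primary cells (295). Col18a1 led in adipose neurospheres (787) and positive spheroid cells (458), and Col6a1 led in M1 neurospheres (237) and M2 neurospheres (184). The lead of Col6a1 depends on the length used, since Col18a1 followed at 224 in M1 and 161 in M2 neurospheres. Col18a1 has 6792 bases of joined exons but a longest transcript of 5595 bases, and over the latter it would lead in both. By plain CPM Col18a1 was the highest collagen in both. Of the 44 genes, 18 had their highest CPM in negative spheroid cells and 0 in M2 neurospheres. The same count was not made over all genes, so it cannot be read as particular to collagens.

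**Figure D2:**
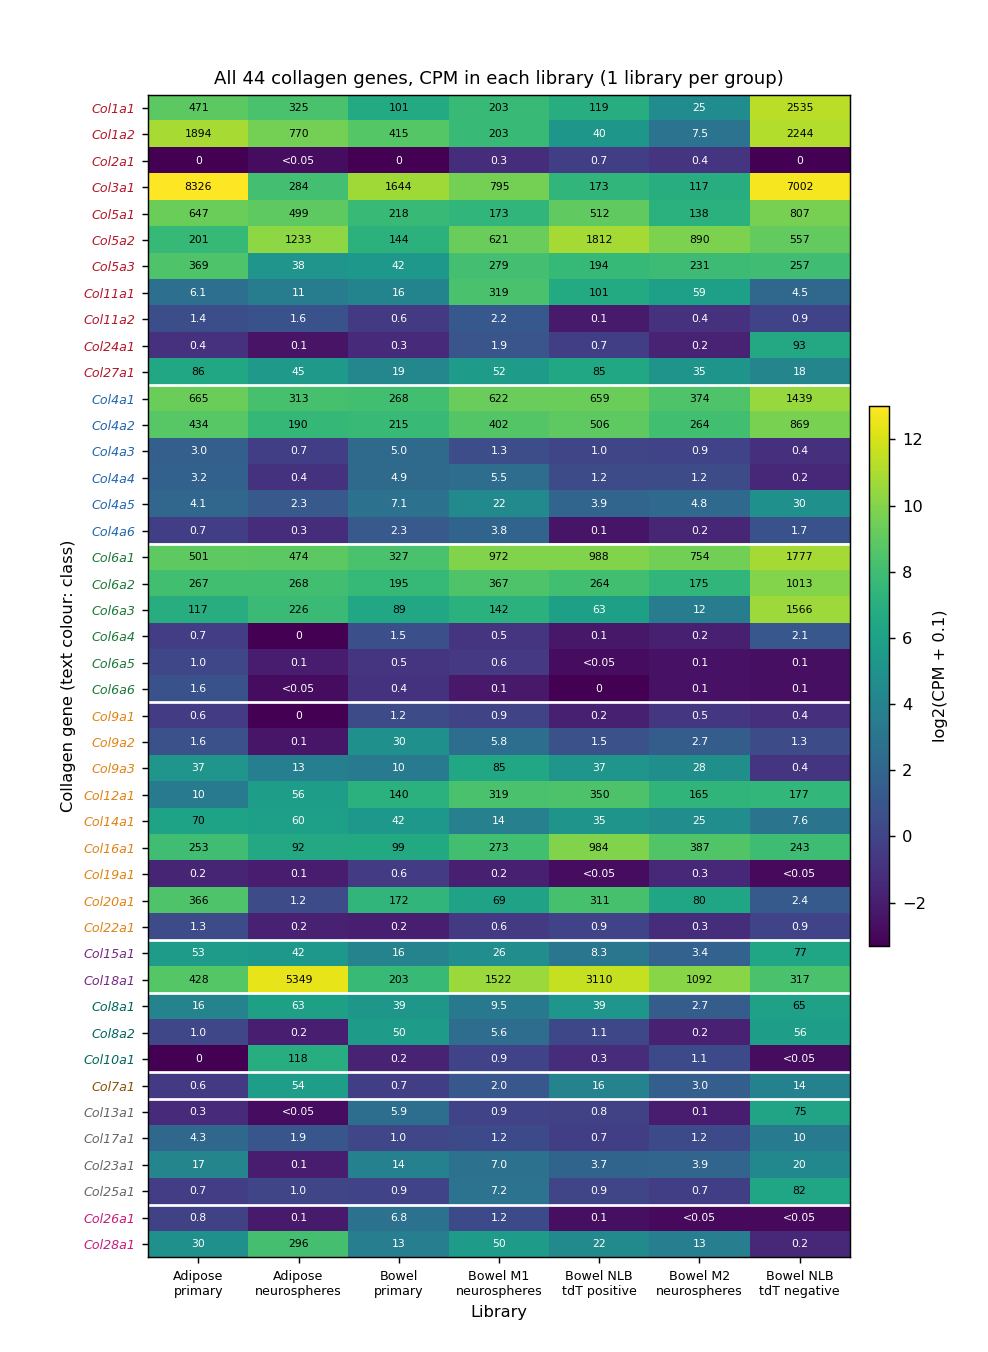
Level of all 44 collagen genes (rows, by class) in the 7 libraries (columns, 1 per group), with colour for log2(CPM + 0.1) and the CPM printed in each cell. Col1a1, Col1a2, Col3a1 and Col6a3 are brightest in negative spheroid cells or adipose primary cells, and Col18a1 and Col5a2 in cultured tdTomato-positive cells.

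Members are described below with their CPM in 7 libraries, always in the order adipose primary cells, adipose neurospheres, bowel primary cells, M1 neurospheres, positive spheroid cells, M2 neurospheres and negative spheroid cells. Among the fibrillar genes, Col3a1 encodes the chain of type III collagen of distensible tissues. It stood at 8326, 284, 1644, 795, 173, 117 and 7002 CPM, highest in adipose primary cells and negative spheroid cells and lowest in M2 neurospheres. Col1a2, the α2 chain of type I collagen, stood at 1894, 770.2, 415, 203, 39.9, 7.52 and 2244 CPM. Its partner Col1a1 stood at 471, 325, 101, 203, 119, 24.7 and 2535 CPM. The 3 genes had their lowest value in the same library, M2 neurospheres, and both type I genes their highest in negative spheroid cells.

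The type I partners were not in the same proportion everywhere. The Col1a1 to Col1a2 ratio of CPM per kb was 0.220 in bowel primary cells (interval 0.214 to 0.226) and 0.224 in adipose primary cells. It was 0.381 in adipose neurospheres, 0.901 in M1 neurospheres and 1.02 in negative spheroid cells. In positive spheroid cells and M2 neurospheres Col1a1 exceeded Col1a2, with ratios of 2.68 (2.563 to 2.804) and 2.96 (2.676 to 3.284). Across libraries the ratio spanned 13.5-fold. In contrast, the Col4a1 to Col4a2 ratio of the main type IV chains stayed between 1.215 and 1.615, a span of 1.33-fold. For Col1a1, Col1a2, Col4a1 and Col4a2 the longest transcript is as long as the joined exons. That length in place of the joined exons therefore could not change either ratio.

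**Figure D3:**
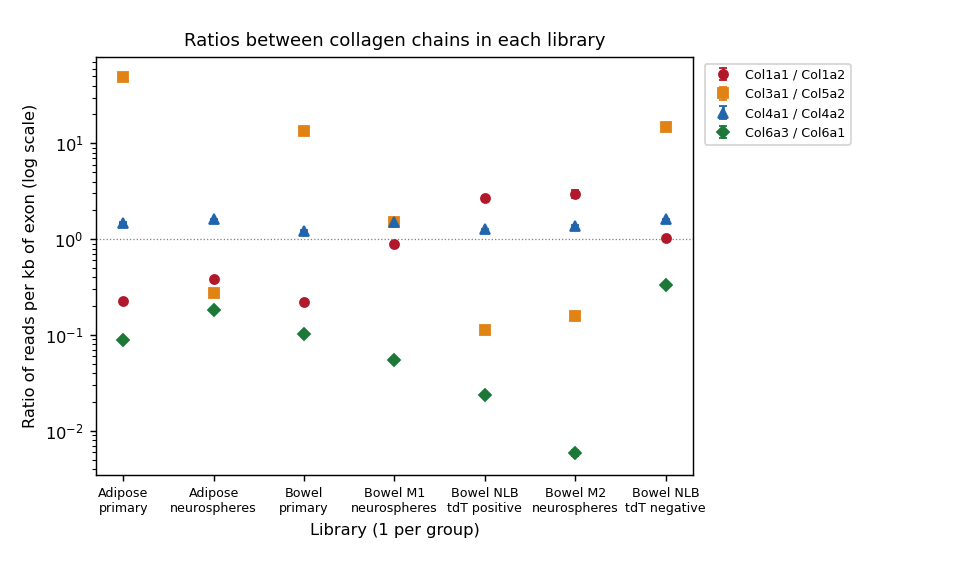
Ratio of CPM per kb between 2 collagen chains (vertical axis, log scale) in the 7 libraries (horizontal axis), with 95% counting intervals. Col4a1 to Col4a2 stays between 1.215 and 1.615, while Col1a1 to Col1a2 runs from 0.220 to 2.96, Col3a1 to Col5a2 is above 10 in both primary libraries and negative spheroid cells, and Col6a3 to Col6a1 is lowest in M2 neurospheres.

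Type V collagen joins type I and III fibrils and limits their width. Its Col5a2 chain stood at 201, 1233, 144, 621, 1812, 889.8 and 557 CPM, highest in positive spheroid cells and lowest in the 2 primary libraries. Col5a1 stood at 647, 499, 218, 173, 512, 138 and 807 CPM. The α3 chain, Col5a3, also described in Schwann cells, stood at 369, 37.5, 41.7, 279, 194, 231 and 257 CPM, low in adipose neurospheres and in bowel primary cells. Col5a2 lies beside Col3a1 on chromosome 1 (GRCm38), tail to tail with 24614 bases between them. The values of these neighbours nevertheless went apart: the Col3a1 to Col5a2 ratio per kb was 49.3 in adipose primary cells, 15.0 in negative spheroid cells and 13.6 in bowel primary cells. It was 1.52 in M1 neurospheres, 0.274 in adipose neurospheres, 0.157 in M2 neurospheres and 0.114 in positive spheroid cells.

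The minor fibrillar genes peaked in different libraries. Col11a1, which starts the thin fibrils of cartilage, stood at 6.12, 11.5, 16.4, 319, 101, 59.2 and 4.45 CPM, highest in M1 neurospheres. Col27a1, a fibrillar collagen of cartilage, stood at 86.2, 45.2, 18.6, 51.5, 84.7, 34.5 and 17.6 CPM, with adipose primary cells and positive spheroid cells on top. Col24a1 stood at 0.406, 0.0812, 0.277, 1.85, 0.727, 0.214 and 93.3 CPM, so that only negative spheroid cells were above 2 CPM. Col11a2 lay between 0.124 and 2.20 CPM. Col2a1, the main collagen of cartilage, stayed below 1 CPM in all libraries, with 0 to 46 reads.

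Of the basement membrane chains, Col4a1 stood at 665, 313, 268, 622, 659, 374 and 1439 CPM. Col4a2, whose start lies 21 bases from that of Col4a1 on the opposite strand of chromosome 8, stood at 434, 189.8, 215, 402, 506, 264 and 869 CPM. The pair were thus highest together in negative spheroid cells, and their exons overlap by 22 bases. Col4a5 stood at 4.14, 2.29, 7.12, 21.9, 3.93, 4.76 and 29.8 CPM, high in negative spheroid cells and M1 neurospheres. Col4a3, Col4a4 and Col4a6, chains of specialised basement membranes, peaked at 5.03, 5.53 and 3.80 CPM.

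The multiplexins have a helix broken by many interruptions and sit in basement membranes. Col18a1, whose tail is the source of the fragment endostatin, stood at 428, 5349, 203, 1522, 3110.1, 1092 and 317 CPM. All 4 cultured tdTomato-positive libraries were above the 2 primary libraries and the negative spheroid cells. Each library stands for its own condition, and the share of all genes that divide this way was not counted. The other multiplexin, Col15a1, stood at 52.7, 42.5, 16.0, 25.7, 8.33, 3.40 and 77.4 CPM, highest in negative spheroid cells and lowest in M2 neurospheres.

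Type VI collagen forms beaded filaments from 3 chains. Col6a1 stood at 501, 474, 327, 972, 988, 754 and 1777 CPM. Col6a2 stood at 267, 268, 195, 367, 264, 175 and 1013 CPM. The long α3 chain, Col6a3, stood at 117, 226, 89.1, 142, 62.6, 11.8 and 1566 CPM. All 3 chains were highest in negative spheroid cells, but Col6a3 was also far lower than Col6a1 in M2 neurospheres, where the Col6a3 to Col6a1 ratio per kb was 0.00592 (0.00551 to 0.00636), against 0.333 (0.330 to 0.336) in negative spheroid cells. With longest-transcript lengths in place of joined exons the ratio was 0.00636 in M2 neurospheres and 0.357 in negative spheroid cells. Col6a4, Col6a5 and Col6a6, the alternatives to it, peaked at 2.10, 1.03 and 1.62 CPM.

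Among the fibril-associated collagens, Col12a1, a large bridging molecule of dense connective tissue, stood at 10.0, 55.6, 139.5, 319, 350.2, 165 and 177 CPM. Col14a1, its relative, stood at 69.9, 60.0, 42.1, 13.6, 34.8, 25.4 and 7.64 CPM. The 2 genes ran to opposite ends in adipose primary cells, where Col12a1 was lowest and Col14a1 highest. Col16a1 stood at 253, 91.7, 99.3, 273, 984, 387 and 243 CPM, highest in positive spheroid cells. Col20a1 stood at 366, 1.23, 172, 68.6, 311, 79.8 and 2.37 CPM. It was thus near the bottom both in negative spheroid cells and in adipose neurospheres, and at least 68.6 CPM in each of the other 5 libraries.

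Type IX collagen decorates the fibrils of cartilage. Its Col9a3 chain stood at 36.8, 13.2, 10.2, 85.5, 36.9, 28.2 and 0.448 CPM, with negative spheroid cells below all 6 tdTomato-positive libraries. Its Col9a2 chain stood at 1.59, 0.0974, 30.0, 5.78, 1.53, 2.73 and 1.27 CPM, high in bowel primary cells. The gene Tcfl5 shares 234 bases of exon (7.68%) with Col9a3 and reached at most 1.56 CPM. Col9a1 peaked at 1.21 CPM, Col22a1 at 1.31 CPM and Col19a1 at 0.641 CPM.

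Col10a1, the network-forming collagen known from hypertrophic cartilage, was close to a single-library gene. It had 7260 reads (118 CPM) in adipose neurospheres, 0 reads in adipose primary cells, and 12, 46, 21, 75 and 3 reads in the other 5 libraries in the order above. Col10a1 lies within Nt5dc1 on the opposite strand, and the exons of the 2 genes share 18 bases (0.575% of Col10a1). Nt5dc1 was at 22.9 CPM in adipose primary cells and 22.4 CPM in adipose neurospheres. Col8a1, the chain of short-chain networks in vessel walls and the cornea, stood at 16.1, 62.9, 39.4, 9.50, 38.9, 2.70 and 65.1 CPM. Its partner Col8a2 stood at 1.00, 0.162, 49.9, 5.59, 1.05, 0.184 and 56.2 CPM, so only bowel primary cells and negative spheroid cells held both at over 10 CPM.

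Col28a1, a collagen described around Schwann cells of peripheral nerve, stood at 29.5, 296, 12.7, 50.1, 21.5, 12.8 and 0.247 CPM. Like Col10a1 it was highest in adipose neurospheres. Col7a1, which forms the anchoring fibrils of skin, stood at 0.594, 53.8, 0.711, 2.04, 15.9, 3.001 and 14.5 CPM, also highest there. Col26a1 reached 6.81 CPM in bowel primary cells and at most 1.18 CPM elsewhere.

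The 4 transmembrane collagens were all highest in negative spheroid cells. Col13a1, a collagen of the neuromuscular junction, stood at 0.297, 0.0487, 5.88, 0.867, 0.820, 0.138 and 75.3 CPM. Col25a1, needed for motor axons to enter muscle, stood at 0.687, 0.974, 0.884, 7.25, 0.944, 0.735 and 82.0 CPM. These 2 genes and Col24a1 each had over 75 CPM in negative spheroid cells and under 10 CPM in all other libraries. Col23a1 stood at 17.1, 0.146, 14.4, 6.996, 3.73, 3.86 and 20.1 CPM, lowest in adipose neurospheres. Col17a1, a protein of hemidesmosomes, stood at 4.34, 1.95, 1.02, 1.18, 0.727, 1.19 and 10.5 CPM.

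3 promoters are printed as examples, chosen after their genes' values were seen: Col10a1 and Col28a1, highest in adipose neurospheres, and Col3a1, lowest in cultured tdTomato-positive cells. Each line gives the 250 bases before an annotated start from the RefSeq table of GRCm38.p6, on the gene's strand, at chr10:34389731-34389980 for Col10a1 (plus strand), chr6:8192618-8192867 for Col28a1 (minus strand, before a start inside the gene's outer bounds) and chr1:45311288-45311537 for Col3a1 (plus strand). None of the 3 stretches overlaps an annotated exon. Capitals mark a TATA box (TATAAA) or the core of a Sox motif (ACAAAG), the binding letters of the family of Sox10.
Col10a1: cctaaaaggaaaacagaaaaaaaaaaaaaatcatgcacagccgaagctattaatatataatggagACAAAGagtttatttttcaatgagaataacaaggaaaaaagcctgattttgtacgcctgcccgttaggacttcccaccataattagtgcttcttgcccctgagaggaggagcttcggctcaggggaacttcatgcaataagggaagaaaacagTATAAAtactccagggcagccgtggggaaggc
Col28a1: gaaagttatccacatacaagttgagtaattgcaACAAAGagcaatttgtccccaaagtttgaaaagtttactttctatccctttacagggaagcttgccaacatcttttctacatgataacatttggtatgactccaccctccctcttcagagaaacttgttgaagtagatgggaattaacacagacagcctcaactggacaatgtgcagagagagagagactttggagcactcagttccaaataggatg
Col3a1: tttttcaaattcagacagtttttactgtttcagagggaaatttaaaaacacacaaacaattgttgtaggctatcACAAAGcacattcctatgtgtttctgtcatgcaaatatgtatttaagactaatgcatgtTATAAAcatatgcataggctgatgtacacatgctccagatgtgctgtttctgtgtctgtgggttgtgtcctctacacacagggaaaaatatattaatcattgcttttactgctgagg
The Col10a1 stretch holds a TATA box whose first base lies 32 bases before the start and Sox motif letters at 185 bases. Col3a1 has the same letters at 117 and 176 bases, and Col28a1 has the Sox motif letters at 217 bases and no TATAAA. Such stretches of Col18a1 (also highest in adipose neurospheres), Col1a2 and Col4a1 are not printed and held no Sox motif letters. That of Col20a1, not printed either, held them. RefSeq windows of 300 bases (250 before and 50 after the start) were found for 35 of the 44 genes, 38 windows in all. Searched on both strands, TATAAA occurred in 13.2% of collagen windows and 13.6% of all 32851 windows, and ACAAAG in 13.2% and 18.7%. The CCAAT box (CCAAT) occurred in 34.2% and 37.4%, and the core of the Runx motif (ACCACA) in 7.90% and 16.8%. The GC box (GGGCGG) occurred in 60.5% of collagen windows and 35.7% of all windows. None of the 5 motifs holds another, and a match describes letters in a window, not a bound site.

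In the 8 comparisons below a gene was measured where it reached 1 CPM in either library. It is called higher or lower only where it passed a size rule, at least 4-fold after TMM scaling with a 95% exact binomial counting interval wholly beyond 2-fold. Log2 ratios include a prior count of 2, so those of low genes are understated. Several comparisons share a library, so their counts are not independent of each other.

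The first comparison asks how collagens differ between tdTomato-positive and tdTomato-negative cells of the same kind of mixed bowel spheroid. Of 34 collagens measured, 15 were lower in positive cells (12.5% of all measured genes were) and 6 were higher (6.64% of all genes). The median log2 ratio was -1.06, against 0.01 over all genes. Types I, III and VI stood on the negative side. Col1a2 had a log2 ratio of -6.06, Col3a1 -5.58 (-5.61 to -5.55), Col6a3 -4.89 and Col1a1 -4.66. Scaling by total counts turned the split to 14 lower (11.5% of all genes) and 9 higher (7.79% of all genes). It ended the call of Col6a2 (-2.18, then -1.94). It added higher calls of Col4a4 (1.95, then 2.17), Col14a1 (1.94, then 2.18) and Col16a1 (1.78, then 2.02).

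The 4 transmembrane genes were all lower in positive cells. Col13a1 had -6.71, Col25a1 -6.63, Col17a1 -4.03 and Col23a1 -2.66. Col24a1, Col8a2, Col15a1, Col4a5, Col4a6 and Col6a4 made up the rest of the lower group, with log2 ratios from -7.18 for Col24a1 to -3.15 for Col4a5. The 6 genes called higher in positive cells were Col20a1 (6.78), Col28a1 (6.05), Col9a3 (6.03), Col11a1 (4.26), Col18a1 (3.05, interval 3.03 to 3.07) and Col27a1 (2.03). Several abundant collagens passed in neither direction, among them Col4a1 at -1.37, Col4a2 at -1.02, Col6a1 at -1.09, Col5a1 at -0.90 and Col5a2 at 1.46. Of 9 fibroblast markers, 8 were measured and 7 were lower in positive cells, which held Dcn at 157 CPM against 7124 CPM in negative cells. All 5 crest and glial markers given above were higher. Also lower in positive cells were 4 of 4 mesothelial, 4 of 4 lymphocyte, 5 of 6 endothelial and 3 of 6 smooth muscle markers measured. The part of these cells in the collagen ratios was not tested.

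**Figure D4:**
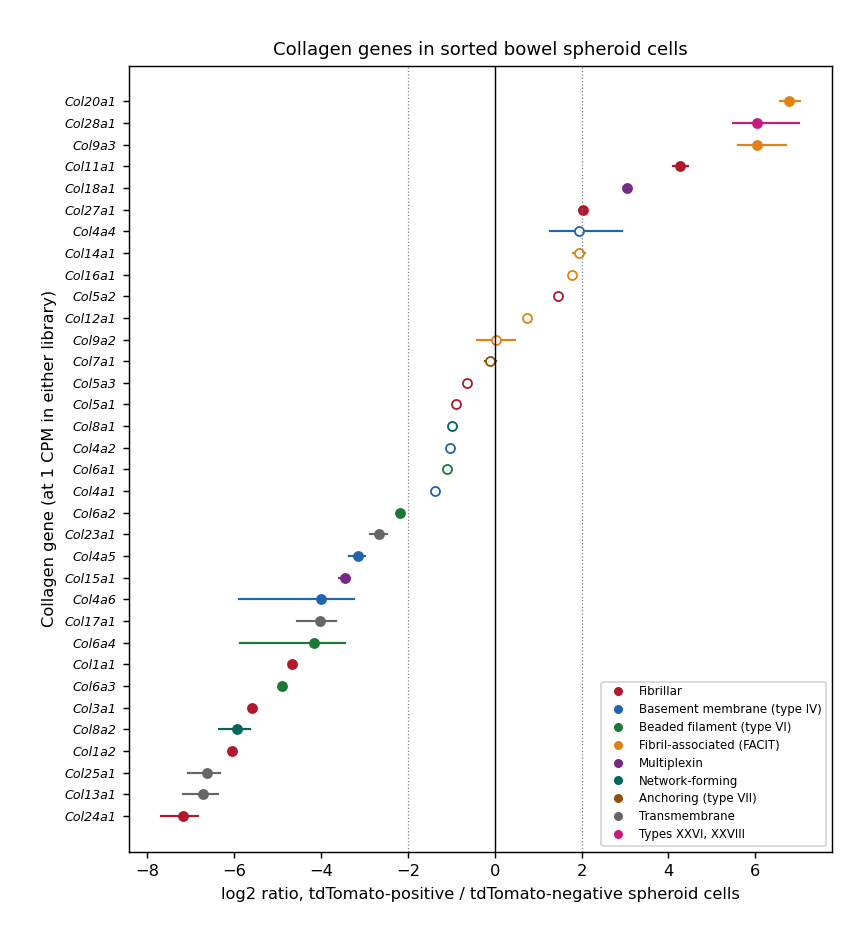
Log2 ratio of tdTomato-positive over tdTomato-negative spheroid cells (horizontal axis) for each measured collagen (34 rows), with 95% counting intervals, dotted lines at 4-fold, filled points for genes that passed the size rule and colours for class. Of the genes that passed, 15 lie on the negative side, led by Col24a1 at -7.18, and 6 on the positive side, led by Col20a1 at 6.78. With genes that did not pass included, 22 ratios are negative and 12 positive.

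Between tissues, freshly sorted adipose cells had more of the main fibrillar collagens than freshly sorted bowel cells. Of 38 collagens measured, 7 were higher in adipose cells (7.09% of all genes) and 5 lower (11.4% of all genes), with a median log2 ratio of 0.85 against 0.09 over all genes. Of the 9 fibrillar genes measured, 5 were higher and 0 lower: Col5a3 at 3.12 (3.06 to 3.19), Col3a1 at 2.32, Col1a1 at 2.20, Col27a1 at 2.19 and Col1a2 at 2.17. Col22a1 (2.81) and Col17a1 (2.03) were the others. The 5 lower genes were Col8a2 (-5.62), Col9a2 (-4.23), Col13a1 (-4.18), Col12a1 (-3.82) and Col26a1 (-3.06). Bowel primary cells carried the smooth muscle, acinar and mesothelial signals given above, and their fibroblast markers summed to 3441 CPM against 1664.5 CPM in adipose cells. Dcn alone gave 2308 and 993 CPM of these sums. By gene the fibroblast list was mixed, with 1 of 9 higher and 1 of 9 lower in adipose cells. Neuron markers were lower in adipose cells in 6 of 6. On the adipose side stood the Schwann cell markers, with 5 of 5 higher (4841 against 833 CPM), and the lymphocyte markers, with 6 of 6 higher (296 against 15.9 CPM). The part of all these cells was not tested. Without the acinar markers in the denominator, the collagen share of bowel primary cells was 0.475%.

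After the same 2-stage culture, adipose neurospheres were compared with M2 neurospheres of the bowel. Of 30 collagens measured, 10 were higher in adipose neurospheres (5.33% of all genes) and 5 lower (8.71% of all genes). The median log2 ratio was 0.66, against -0.01 over all genes, and it became -0.08 when genes under 1 CPM were kept. The higher genes were Col1a2 (6.79), Col10a1 (6.76), Col8a1 (4.65), Col28a1 (4.65), Col6a3 (4.38), Col7a1 (4.27), Col1a1 (3.84), Col15a1 (3.75), Col18a1 (2.41) and Col11a2 (2.05). The lower ones were Col20a1 (-5.86), Col23a1 (-4.34), Col9a2 (-4.31), Col5a3 (-2.50) and Col11a1 (-2.25). Col11a2 lost its call with total-count scaling (1.93).

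The bowel library used mattered for several of these genes. Against M1 neurospheres in place of M2, the calls of Col1a1 (0.97), Col6a3 (0.97) and Col15a1 (1.02) ended, and that of Col11a2 turned to -0.15. Of 36 collagens measured there, 7 were higher (3.90% of all genes) and 14 lower (14.0% of all genes). Against positive spheroid cells the calls of Col18a1 (0.79), Col8a1 (0.70), Col1a1 (1.46), Col7a1 (1.76) and Col6a3 (1.86) ended. Of 31 collagens measured there, 5 were higher (3.54% of all genes) and 8 lower (8.20% of all genes). Col1a2, Col10a1, Col28a1, Col20a1, Col23a1, Col9a2, Col5a3 and Col11a1 passed in the same direction against both of these libraries. Fibroblast markers summed to 181 CPM in adipose neurospheres and 903 CPM in M2 neurospheres, with Dcn at 11.3 and 11.0 CPM, Fn1 at 159 and 581 CPM and Fbln1 at 3.21 and 300.4 CPM. Neuron markers were lower in adipose neurospheres in 5 of 6. Of 4 Schwann cell markers measured, 2 were lower there and 1 was higher (Egr2, 19.7 against 2.97 CPM). The part of these cells in the collagen ratios was not tested.

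Culture of adipose crest cells was described by adipose neurospheres against adipose primary cells. Of 34 collagens measured, 10 were lower after culture (20.8% of all genes) and 6 higher (5.71% of all genes), with a median log2 ratio of -1.03 against -0.01 over all genes. Col10a1 went from 0 reads to 7260 reads and was at least 2272-fold higher, taking 3 reads as the floor for 0. Col7a1 (6.29), Col18a1 (3.50, interval 3.48 to 3.52), Col28a1 (3.18), Col5a2 (2.47) and Col12a1 (2.32) were also higher. Col20a1 was lowest at -8.32 (-8.70 to -8.04), followed by Col23a1 (-6.72), Col3a1 (-5.02), Col6a6 (-4.48), Col9a2 (-3.78) and Col5a3 (-3.44). Col4a4, Col22a1, Col6a5 and Col4a3 were lower by smaller ratios, from -2.98 to -2.16. Col1a1 at -0.68 and Col1a2 at -1.44 passed in neither direction. Fibroblast markers summed to 1664.5 CPM before and 181 CPM after culture, and macrophage markers to 1548 and 26.1 CPM. The largest drop by sum among the 11 marker lists was that of the Schwann cell markers, from 4841 to 44.1 CPM, with 5 of 5 lower and a median log2 ratio of -7.77. Also lower were 8 of 9 fibroblast, 5 of 5 macrophage, 6 of 6 endothelial, 6 of 6 lymphocyte, 4 of 4 adipocyte and 4 of 6 smooth muscle markers measured. The part of these cells in the collagen ratios was not tested.

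In the bowel, M1 neurospheres were compared with primary cells. Of 38 collagens measured, 8 were lower (16.3% of all genes) and 6 higher (6.58% of all genes). The median log2 ratio was 0.37, against -0.07 over all genes. Scaling by total counts turned this split to 5 lower (13.7% of all genes) and 7 higher (11.1% of all genes). The higher genes were Col11a1 (3.82), Col9a3 (2.60), Col25a1 (2.53), Col18a1 (2.44), Col5a3 (2.28) and Col24a1 (2.16). The lower ones were Col8a2 (-3.61), Col13a1 (-3.16), Col26a1 (-2.95), Col9a2 (-2.83), Col8a1 (-2.51), Col4a3 (-2.34), Col14a1 (-2.09) and Col6a4 (-2.07). With that scaling Col14a1 (-1.63), Col4a3 (-1.89) and Col6a4 (-1.63) lost their calls. Smooth muscle markers summed to 24364 CPM before and 82.3 CPM after culture, and acinar markers to 39335 and 3.95 CPM. Also lower after culture were 7 of 9 fibroblast, 5 of 6 endothelial, 4 of 5 macrophage and 4 of 5 mesothelial markers, and what part these cells had was not tested.

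Against bowel primary cells, more collagen genes were lower than higher in M2 neurospheres. The collagen share of all reads was not lower in M2 neurospheres (0.490% against 0.456%), except over TMM library sizes (0.445% against 0.505%). Of 36 collagens measured, 15 were lower (21.0% of all genes) and 4 higher (5.89% of all genes), with a median log2 ratio of -0.98 against -0.07 over all genes. The higher genes were Col5a2 (2.34), Col5a3 (2.19), Col18a1 (2.14) and Col10a1 (2.03, from 12 to 75 reads). Col8a2 (-8.12), Col26a1 (-6.98), Col1a2 (-6.07), Col13a1 (-5.38), Col8a1 (-4.14) and Col3a1 (-4.10) had the lowest ratios. The other 9 lower genes ran from Col9a2 at -3.73 to Col23a1 at -2.17, and among them were Col6a3 (-3.20), Col15a1 (-2.51) and Col1a1 (-2.32). Col23a1 (-1.89) and Col4a4 (-1.94) lost their calls with total-count scaling. Of 9 fibroblast markers 7 were lower after culture (median log2 ratio -6.42), with Dcn going from 2308 to 11.0 CPM. Also lower were 6 of 6 smooth muscle, 6 of 6 acinar, 5 of 5 mesothelial, 5 of 5 macrophage and 5 of 6 endothelial markers, and the part of these cells was not tested.

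The 2-stage cultures of the 2 tissues share no library, and their calls can be set side by side. Called higher in both were Col5a2, Col10a1 and Col18a1, which are 3 of the 6 adipose and 3 of the 4 bowel calls. Called lower in both were Col3a1, Col4a3, Col4a4, Col9a2 and Col23a1, which are 5 of the 10 adipose and 5 of the 15 bowel calls. Of the 30 collagens measured in both tissues, 10.0% were thus higher in both and 16.7% lower in both, against 1.45% and 11.9% of all 13895 genes measured in both. Over all genes, those lower in both were 54.1% of the adipose and 52.0% of the bowel calls, and those higher in both 24.0% and 22.6%. Calls in opposite directions were 1.16% of all genes. One collagen was called in opposite directions: Col5a3 had -3.44 (-3.51 to -3.38) in adipose cells and 2.19 (2.12 to 2.25) in bowel cells. M1 neurospheres gave 2.28 over the same bowel primary library. Schwann cell markers summed to 4841 CPM in adipose primary cells and 44.1 CPM in adipose neurospheres, against 833 CPM in bowel primary cells and 728 CPM in M2 neurospheres, and their part was not tested. Both type I genes were called lower in M2 neurospheres of the bowel and passed in neither direction in adipose cells. In M1 neurospheres against bowel primary cells, Col1a1 (0.54) and Col1a2 (-1.49) also passed in neither direction. The difference between the 2-stage cultures of the 2 tissues was not tested.

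**Figure D5:**
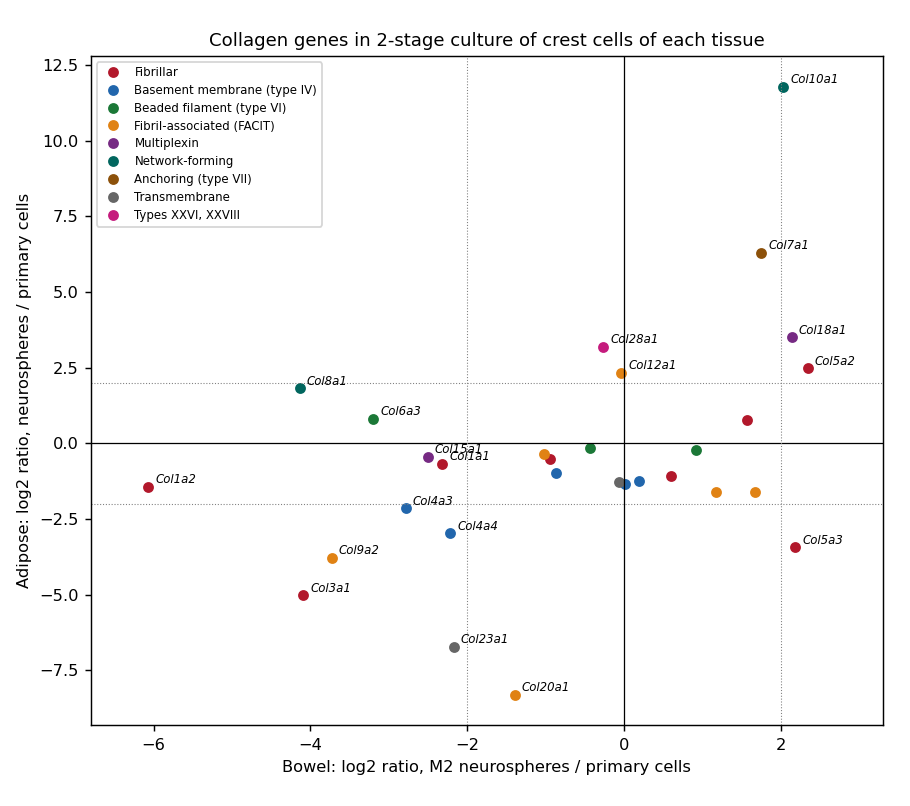
Log2 ratio of 2-stage neurospheres over primary cells in the bowel (horizontal axis, M2) and in adipose tissue (vertical axis) for collagens measured in both tissues, 1 point per gene, with dotted lines at 4-fold. Col18a1, Col5a2 and Col10a1 lie beyond both lines at the upper right (the adipose value of Col10a1 is fitted against 0 reads and is no bound), and Col5a3 lies at the lower right with 2.19 and -3.44.

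The second culture stage was described by M2 neurospheres against positive spheroid cells. Of 30 collagens measured, 8 were lower (3.86% of all genes) and 0 higher (3.07% of all genes), with a median log2 ratio of -0.99 against -0.02 over all genes. The 8 genes were Col8a1 (-3.95), Col1a2 (-2.51), Col6a3 (-2.51), Col7a1 (-2.51), Col8a2 (-2.44), Col1a1 (-2.37), Col20a1 (-2.08) and Col5a1 (-2.01). The last 2 were close to the limit: total-count scaling ended both calls (-1.96 and -1.89), and DESeq2 size factors ended that of Col5a1 (-1.98). Col18a1 had -1.62 and passed in neither direction. Under a 2-fold rule 15 collagens were lower (11.6% of all genes) and 1 was higher (8.13% of all genes). Fibroblast markers summed to 4800 CPM in positive spheroid cells, of which Fn1 gave 4266 CPM, and to 903 CPM in M2 neurospheres, and 4 of 6 measured were lower. Neuron markers were higher in M2 neurospheres in 3 of 6, and what part these cells had was not tested.

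The neurosphere methods were compared through M2 against M1. Of 36 collagens measured, 13 were lower in M2 neurospheres (7.37% of all genes) and 0 higher (1.2% of all genes), with a median log2 ratio of -0.90 against -0.08 over all genes. 6 of the 10 fibrillar genes measured were lower: Col1a2 (-4.58), Col1a1 (-2.86), Col24a1 (-2.76), Col3a1 (-2.59), Col11a1 (-2.26) and Col11a2 (-2.20). The others were Col8a2 (-4.53), Col26a1 (-4.09), Col4a6 (-3.62), Col6a3 (-3.41), Col25a1 (-3.07), Col15a1 (-2.73) and Col4a5 (-2.02). Col18a1 (-0.31), Col5a2 (0.69), Col6a1 (-0.19) and Col5a3 (-0.10) passed in neither direction. Macrophage markers summed to 1330.0 CPM in M1 and 27.0 CPM in M2 neurospheres and mesothelial markers to 75.3 and 0.260 CPM. Of 6 fibroblast markers measured, 3 were lower in M2 neurospheres (median log2 ratio -2.34), with Dcn at 144 CPM in M1 and 11.0 CPM in M2 and Lum at 98.4 and 7.64 CPM. Smooth muscle markers were lower in 3 of 6, and what part these cells had was not tested. The methods also differ in culture time, which cannot be told apart from the order of sorting.

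Of 19 genes for hydroxylation, glycosylation and folding of collagen, all 19 were measured in each comparison and between 1 and 3 passed the size rule in either direction (5.26% to 15.8%). Over all genes 6.94% to 26.9% passed in the same comparisons. The share of the enzymes was close to that of all genes between neurospheres of the 2 tissues (15.8% and 14.0%) and from positive spheroid cells to M2 neurospheres (5.26% and 6.94%). In spheroids P3h2, a prolyl 3-hydroxylase, was higher in positive cells (2.93) and P4ha3, a prolyl 4-hydroxylase chain, was lower (-3.37). P4ha3 was also lower in M1 (-2.22) and M2 neurospheres (-4.52) than in bowel primary cells, in adipose than in bowel primary cells (-2.94), and in M2 than in M1 neurospheres (-2.30). P4ha2, another such chain, stood at 238 CPM in adipose neurospheres against 50.8 CPM in adipose primary cells (log2 ratio 2.08) and 38.3 CPM in M2 neurospheres (2.76), and it was lower in M2 neurospheres than in positive spheroid cells (-2.65). Colgalt2, a collagen galactosyltransferase, was lower in adipose neurospheres than in adipose primary cells (-2.23) and than in M2 neurospheres (-2.93). P4ha3 was higher in adipose than in M2 neurospheres (2.86). Of these tissue differences, P4ha3 (0.56) did not pass against M1 neurospheres, and P4ha2 (0.11) and Colgalt2 (-1.22) did not pass against positive spheroid cells. The M1 call of P4ha3 ended with total-count scaling (-1.76).

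The next list holds 13 genes that trim and cross-link fibrillar collagen. Of 13 measured in spheroids, 6 were lower in positive cells (12.5% of all genes) and 1 was higher (6.64% of all genes). The lower ones were Tll2 (-8.58), the N-propeptidase gene Adamts2 (-5.17), Lox (-4.38), Pcolce (-3.77), Adamts3 (-2.81) and Loxl1 (-2.54). Tll2 had 2 reads in positive cells, and its interval ran from -12.68 to -7.78. The higher one was Adamts14 (2.16). Lox, the lysyl oxidase that starts cross-links, stood at 19.0 CPM in positive and 336 CPM in negative cells. Adamts2 was lower after culture in adipose cells (-3.72), in M1 (-2.94) and in M2 neurospheres (-8.19), and so was Pcolce, an enhancer of C-propeptide removal (-3.60, -2.52 and -3.48).

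Of 12 such genes measured between neurospheres of the 2 tissues, 5 were higher in adipose neurospheres (5.33% of all genes) and 0 lower (8.71% of all genes). The 5 genes were Adamts2 (5.22), Pcolce2 (5.22), Tll1 (4.74), Bmp1 (2.80) and Adamts3 (2.28). Against M1 neurospheres Adamts2 (-0.04) and Adamts3 (1.54) did not pass, and against positive spheroid cells Bmp1 (0.40) and Adamts3 (1.21) did not. Bmp1, the C-propeptidase of fibrillar collagens, stood at 1125 CPM in adipose neurospheres, 159 CPM in adipose primary cells and 176 CPM in M2 neurospheres. In M2 against primary bowel cells Loxl4 (-3.04), Tll1 (-2.52) and Pcolce2 (-2.31) were lower as well. In adipose culture Tll1 (3.64), Adamts3 (3.03) and Bmp1 (2.67) were higher. Against positive spheroid cells M2 neurospheres were lower in Adamts2 (-3.15), Loxl4 (-3.13), Bmp1 (-2.39), Tll1 (-2.26) and Loxl2 (-2.15), and against M1 neurospheres in Adamts2 (-5.26), Loxl4 (-2.90) and Tll1 (-2.72). M1 neurospheres were lower than bowel primary cells in Pcolce2 (-2.998), and adipose primary cells were higher than bowel primary cells in Pcolce2 (2.48) and lower in Adamts3 (-2.26).

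Of 10 collagen receptors measured in spheroids, 4 were higher in positive cells (6.64% of all genes) and 4 lower (12.5% of all genes). The higher ones were Adgrg1, the adhesion receptor for type III collagen, at 4.95, the inhibitory receptor Lair1 at 3.44, and the integrin chains Itga1 at 2.95 and Itga2 at 2.12. The lower ones were the endocytic receptor Mrc2 at -6.62, Itga11 at -5.55, the discoidin domain receptor Ddr2 at -4.51 and Itga10 at -4.02. Adgrg1 stood at 413 CPM in positive and 11.2 CPM in negative cells. It was also higher after culture in adipose cells (3.85), in M1 (3.28) and in M2 neurospheres (2.64), where Col3a1 was called lower in adipose and M2 neurospheres and had -1.51 in M1.

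Other receptors were called between tissues and in culture. Itga2 was lower in adipose neurospheres than in adipose primary cells (-4.10) and M2 neurospheres (-3.44). Ddr1 was higher in adipose neurospheres than in adipose primary cells (2.09), and Itga11 was lower (-2.92). Against bowel primary cells, Ddr2, Lair1 and Itga11 were lower in M1 neurospheres (-2.36, -3.32 and -2.38) and in M2 neurospheres (-3.46, -4.14 and -4.85). With total-count scaling Ddr2 (-1.90) and Itga11 (-1.92) in M1 did not pass, nor did Mrc2 in M2 (-1.72). Mrc2 was lower in M2 neurospheres than in bowel primary cells (-2.001) and M1 neurospheres (-3.58). Itga10 was higher in M1 neurospheres than in bowel primary cells (2.80) and lower in M2 than in M1 neurospheres (-3.80), as was Itga11 (-2.49). Ddr2 (-2.45) and Lair1 (-2.05) were lower in adipose than in bowel primary cells. Macrophages also express Lair1, and the 5 macrophage markers summed to 3875 CPM in bowel primary cells against 1548 CPM in adipose primary cells, and their part was not tested.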

How the data were processed

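Trizol RNA of 7 groups, 1 library each, was turned into full-length cDNA (SMART-Seq v4) and Nextera XT libraries, per the labels' protocols. The authors deposited CPM for each Entrez gene. Their processing, per the submitters' processing notes, used the mm10 genome, HISAT, featureCounts and bcl2fastq 2.17. Settings, annotation, strand use and other versions: not given in the sources used here. Reads of overlapping genes therefore cannot be told apart.

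Deposited CPM values fell on steps of 1 read, and whole reads were recovered for 100% of values within 0.05 read. Totals ran from 51885106 to 65301500 reads, and 3 reads (the floor for 0) correspond to 0.0459 to 0.0578 CPM. Symbols and coordinates came from RefSeq (GRCm38.p6) by Entrez identifier, which matched 25275 of 27179 identifiers; the other 1904 held 0.222% to 0.351% of reads. Levels between genes were compared per kilobase of joined exons (GENCODE release M21, GRCm38).

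Libraries were scaled by TMM (edgeR 4.0.16, R 4.3.3) over the 16461 genes that reached 1 CPM. A single library in each group leaves no degrees of freedom, so no count test was run on the recovered reads, and no p-value or standard error is given. Differences were described by the size rule (at least 1 CPM, 4-fold, 95% interval beyond 2-fold, prior count 2). Reads carry no molecular identifiers and were amplified, so they are not independent molecules, and intervals and floors cover counting error only.

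The collagens, the 9 collagen classes, the 3 lists of 43 pathway genes and the 11 marker lists were chosen with earlier results of these data known. 1 gene of the crest and glial marker list is not reported here and was left out of its sums. Every collagen that reached 10 CPM (32 genes) is given with its CPM in 7 libraries; 10 others reach 1 CPM and 2 do not. Pathway genes are named where they passed the size rule. Alternatives were total-count scaling, DESeq2 1.42.0 size factors, filters at 5 CPM or none, a 2-fold rule, a prior count of 0.5, other bowel libraries and other denominators. The longest-transcript length was added after seeing the data. Of the steps, only the size rule was tested on simulated reads, for the spheroid pair, with counting error alone and without TMM scaling. Scripts ran in Python 3.11.15 (scipy 1.17.1, pandas 2.3.3, numpy 2.4.6, matplotlib 3.10.9).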

Additional observations from a re-analysis of the deposited data

Results flagged for a closer look

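Col5a3 was called in opposite directions by 2-stage culture in the 2 tissues. Its log2 ratio of neurospheres over primary cells was -3.44 in adipose cells (from 369 to 37.5 CPM) and 2.19 in bowel cells (from 41.7 to 231 CPM), a difference of -5.63. With 1 library per group the difference was not tested. The bowel direction was the same in M1 neurospheres (2.28), a ratio over the same bowel primary library. The primary libraries held other cells in different amounts (smooth muscle markers at 302 CPM in adipose and 24364 CPM in bowel cells). Schwann cell markers summed to 4841 CPM in adipose primary cells and 44.1 CPM in adipose neurospheres (5 of 5 lower), against 833 CPM in bowel primary cells and 728 CPM in M2 neurospheres (1 of 4 measured lower). The part of these cells was not tested.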

How the results depend on the processing

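No paired analysis was possible because each group has 1 library. Of the 118 calls of collagens over the 8 comparisons, 117 kept direction and call with DESeq2 size factors and 109 with total-count scaling. A filter at 5 CPM left 94, since it leaves out low genes. Using no filter, a prior count of 0.5 or the 2-fold rule can only add calls to the main rule. All 118 calls therefore stood in those settings by design. Total-count scaling moved the median of all genes to 0.25 in the spheroid comparison, -0.13 between neurospheres, 0.13 in adipose culture, 0.38 for M1 and 0.22 for M2 against primary cells and -0.25 for M2 against M1. It moved the median of collagens to -0.81 (spheroids), 0.82 (M1 against primary cells), -0.70 (M2 against primary cells) and -0.88 (M2 against positive spheroid cells). It left 5 collagens lower for M1 (13.7% of all genes). DESeq2 size factors gave -0.96 for M2 against positive spheroid cells. With no filter the medians were -0.94 (spheroids), 0.48 (primary tissues), -0.078 (neurospheres of the 2 tissues, with 8 lower and 7.50% of all genes), -1.21 (adipose culture), -0.91 (M2 against primary cells) and -0.73 (M2 against positive spheroid cells). At 5 CPM they were 1.05 (neurospheres, 3 lower and 6.62% of all genes), -0.46 (adipose culture, 4 lower and 16.5% of all genes) and -1.20 (M2 against positive spheroid cells). Counts under the 2-fold rule are given with the share of all genes in brackets. Collagens numbered 10 higher in the spheroids (14.3%), and 18 higher (17.1%) and 9 lower (18.8%) between primary tissues. They numbered 8 lower between neurospheres (17.4%) and 17 lower in adipose culture (29.2%). Against primary cells 14 were higher for M1 (19.65%) and 8 for M2 (19.3%). For M2, 1 was higher (8.13%) and 15 lower (11.6%) against positive spheroid cells, and 1 higher against M1 (6.32%). With M1 as the bowel library, 14 collagens were lower in adipose neurospheres (14.0% of all genes, median of collagens -0.72), and Col11a2 (-0.15) and Adamts2 (-0.040) reversed. With positive spheroid cells, 5 collagens were higher (3.54% of all genes) and 8 lower (8.20% of all genes), with a median of -0.55. Over TMM library sizes the collagen share was 1.67% in adipose primary cells, 1.07% in adipose neurospheres, 0.505% in bowel primary cells, 0.611% in M1, 1.03% in positive spheroid cells, 0.445% in M2 and 2.48% in negative spheroid cells; without acinar marker reads bowel primary cells had 0.475%. The causes were not tested. Depth limits the low genes: Col2a1 and Col19a1 had at most 46 and 37 reads.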
